A study of Homo sapiens with 6 samples.

Results

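Expression of 10 genes for immune checkpoint ligands and immune-suppressive surface proteins was examined in libraries of WM164 melanoma cells labelled as expressing a tethered MAFG-MITF dimer (T-MGM) or GFP. The genes were CD274, PDCD1LG2, CD276, VTCN1, NT5E, CD47, LGALS9, PVR, NECTIN2 and CD70. The rule that picks them uses gene names and no measured value, although the set was drawn up with earlier results of these data known, and all 10 were found among the 58870 genes of the count table. Of these 10, 7 had enough reads for an adjusted p, whereas PDCD1LG2, VTCN1 and LGALS9 had at most 8 counts in any library. Among the 7 genes tested, NECTIN2, CD276, NT5E, PVR and CD47 were higher in the libraries labelled T-MGM, by 1.53-fold to 1.12-fold. CD70 was lower, on few reads, and CD274, which encodes PD-L1, did not pass the test.

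WM164 is an established human melanoma cell line of the MITF-high type. RNA sequencing was done on 3 libraries of cells overexpressing GFP, the control, and 3 libraries of cells labelled as overexpressing T-MGM, in which MAFG is joined to the melanocyte isoform of MITF by a flexible linker. According to the study's methods both proteins were delivered by lentivirus under an EF1α promoter with blasticidin selection. The dimer came from one cDNA, with MAFG downstream of MITF. The labels give replicate numbers but do not say that replicates came from separate transductions or cultures, so that p-values measure only the spread between these libraries, which may be technical.

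Total counts were 35057239 to 38738065 in the GFP libraries and 44577774 to 59250663 in the libraries labelled T-MGM. A count of 3 in a library, taken as its floor, corresponded to 0.0506 to 0.0856 CPM, that is, counts scaled to library size. Neither gene of the construct was clearly raised in the libraries labelled T-MGM. MAFG had a log2 fold change of -0.06 (SE 0.04, adjusted p = 0.236 by DESeq2) and MITF one of 0.08 (SE 0.02, adjusted p = 4.8e-07 by DESeq2). For this reason the treated group is called by its label throughout. The study reports expression of the dimer in WM164 cells and, by quantitative RT-PCR, induction of AXL by it. AXL was also higher in the libraries labelled T-MGM (log2 fold change 2.26, SE 0.09, adjusted p = 2.19e-136 by DESeq2). All 9 melanocytic markers examined, among them MITF, SOX10 and PMEL, had over 100 mean normalized counts. Of these 9, 3 passed the test as higher in T-MGM libraries and 4 as lower, namely DCT (log2 fold change -2.49), MLANA (-0.68), TYR (-0.35) and S100B (-0.21), named after their values were seen. The 3 higher genes were MITF, SOX10 and PMEL, by at most 0.11, and all of them turned lower in limma on TPM, SOX10 and PMEL also after GC and length correction. Of 13 immune cell markers, 7 had at most 3 counts in every library. PTPRC, which encodes the pan-leukocyte antigen CD45, had at most 2, and CD3D, CD2 and NKG7 were at 0 throughout. Summed over the 13 genes, normalized counts were 72.5 to 89.9 in GFP and 36.1 to 57.5 in T-MGM libraries, most of them from LYZ in the GFP group. LYZ, named after its values were seen, fell by 1.32 on the log2 scale (SE 0.31, adjusted p = 7.83e-05 by DESeq2). The 9 stromal and endothelial markers summed to 418 to 430 normalized counts with GFP and 764 to 807 with T-MGM. Of these, LUM rose by 0.77 and PDGFRA by 1.497, and COL1A1 rose by 1.23 (adjusted p of 0.000608 or lower by DESeq2). In limma on TPM, LUM did not pass in any of the 3 fits (adjusted p of 0.0595 to 0.172), and without a filter COL1A1 (0.663) and LYZ (0.0515) did not pass. The part of either set in the results that follow was not tested. In bulk RNA, fewer cells that express a gene and less RNA per cell cannot be told apart.

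Checkpoint ligands are surface proteins through which a tumour cell restrains the lymphocytes and phagocytes that touch it. PD-L1 and PD-L2 engage PD-1 on T cells, and B7-H3 and B7-H4 are relatives in the B7 family. PVR (CD155) and NECTIN2 (CD112) are nectin-like adhesion proteins that are read by the inhibitory receptor TIGIT and by the activating receptor CD226. CD47 binds SIRPα on macrophages and blocks engulfment, and CD73, the product of NT5E, makes adenosine, which dampens T cell activity. Interferon-γ is the best known inducer of PD-L1, and CD73 has been linked to the mesenchymal-like melanoma state.

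Promoter sequences are shown for the 3 genes that frame the result. NECTIN2 and CD276 had the largest increases in the fit without GC and length correction, and CD274 is the ligand that did not pass. With that correction CD276 (log2 fold change 0.24) rose less than CD47 (0.30) and NT5E (0.29). RefSeq windows on GRCh38.p14, from 250 bases before to 50 bases after an annotated start, were found for 8 of the 10 genes. Capitals mark matches on either strand to the letters CACGTG or CATGTG, E-boxes of the kind MITF binds, TGCTGA, the flank of the element bound by MAF proteins, TGACGTCA, the cyclic AMP response element, and TGANTCA, the AP-1 element. None of these contains another, although their ends can overlap, and they were chosen with the sequences in view. The windows lie at chr19:44846047-44846346 for NECTIN2, at chr15:73684133-73684432 for CD276, which has a second window further downstream, and at chr9:5450292-5450591 for CD274, all on the plus strand.
NECTIN2: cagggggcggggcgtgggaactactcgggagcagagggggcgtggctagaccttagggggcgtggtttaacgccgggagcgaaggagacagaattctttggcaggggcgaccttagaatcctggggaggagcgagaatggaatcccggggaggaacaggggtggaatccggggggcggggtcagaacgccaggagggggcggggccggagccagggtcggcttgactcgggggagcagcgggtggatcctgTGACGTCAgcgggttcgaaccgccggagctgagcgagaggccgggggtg
CD276: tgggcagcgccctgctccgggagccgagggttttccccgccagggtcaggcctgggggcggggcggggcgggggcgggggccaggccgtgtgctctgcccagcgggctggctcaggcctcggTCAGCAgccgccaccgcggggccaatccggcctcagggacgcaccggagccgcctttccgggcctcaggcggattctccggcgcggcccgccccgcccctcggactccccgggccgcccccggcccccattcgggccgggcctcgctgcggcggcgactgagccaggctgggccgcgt
CD274: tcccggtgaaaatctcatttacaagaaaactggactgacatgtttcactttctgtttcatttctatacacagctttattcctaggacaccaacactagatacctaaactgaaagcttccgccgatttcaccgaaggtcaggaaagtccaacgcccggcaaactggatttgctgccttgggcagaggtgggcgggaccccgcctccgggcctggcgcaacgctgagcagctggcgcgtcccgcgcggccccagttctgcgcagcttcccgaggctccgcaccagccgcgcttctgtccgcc

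The NECTIN2 window held TGACGTCA, with its first base at position 2 of the transcript, as did 1.85% of 35116 human windows of the same length. The CD276 window held TGCTGA on the opposite strand, at position -128 from the start, and the PVR window held TGCTGA at position -218. Among all windows 17.3% held TGCTGA. CD274, NT5E, CD47 and LGALS9 had none of these letters in their windows, and neither did the second CD276 window. CACGTG was in none of the 9 windows of these genes, nor was CATGTG, against 7.26% and 11.1% of all windows. The VTCN1 window held TGCTGA and TGANTCA, the latter found in 7.71% of all windows. A match describes the letters of a window only.

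Transcript levels were first set side by side in TPM, which is scaled for transcript length as well as depth. CD276 was the most abundant of the 10 genes, at 58.1 ± 1.57 TPM in GFP and 67.5 ± 1.69 TPM in T-MGM libraries (± SD, n = 3 per group). It made up 45.3% of the summed TPM of the 10 genes in GFP and 47.3% in T-MGM libraries. NT5E followed at 27.5 ± 0.739 and 29.3 ± 1.03 TPM, PVR at 16.7 ± 0.273 and 17.5 ± 0.470 TPM, CD47 at 15.0 ± 0.731 and 15.1 ± 0.758 TPM, and NECTIN2 at 8.65 ± 1.52 and 11.9 ± 0.382 TPM. In both groups the library ranges of neighbours in this order did not overlap. CD70 and CD274 were far lower. CD70 lay above CD274 in GFP libraries, at 1.38 ± 0.0889 against 0.837 ± 0.112 TPM, and their ranges overlapped in T-MGM libraries, at 0.547 ± 0.257 and 0.690 ± 0.340 TPM. The CD274 value in T-MGM library 3 was 0.30 TPM with 60.5 normalized counts, against 0.85 TPM with 77.5 in T-MGM library 1. The 2 measures thus differ for this gene in library 3, and its order with CD70 there is uncertain. VTCN1, LGALS9 and PDCD1LG2 were at or under 0.35 TPM in every library, and their ranges overlapped one another.

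**Figure D1:**
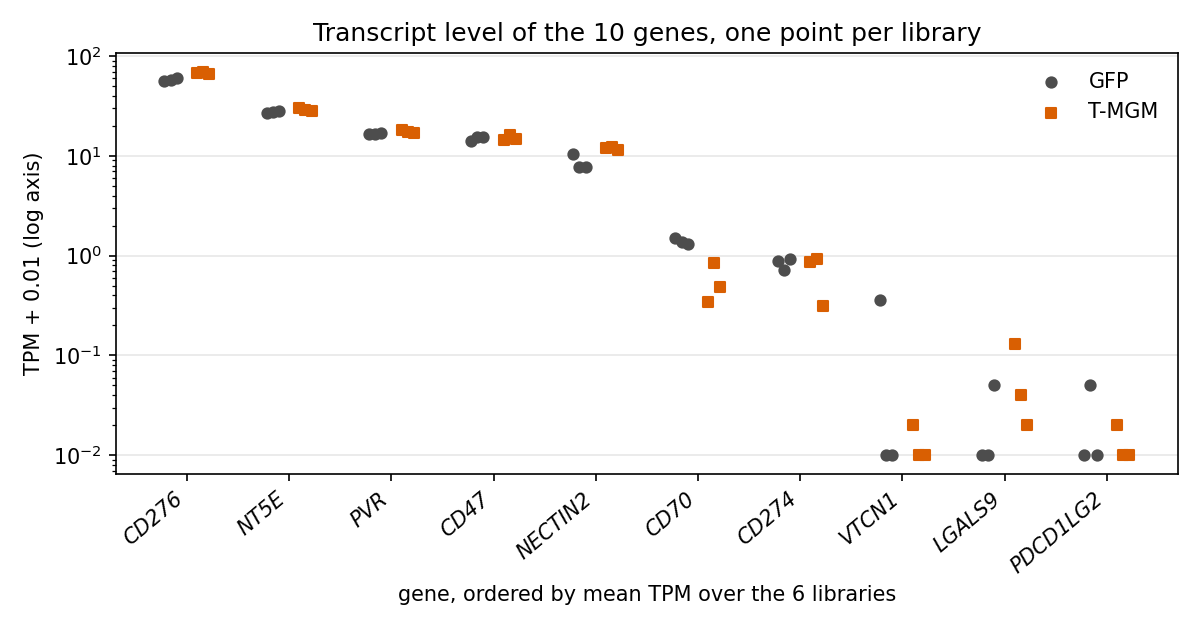
Transcript level of each gene in TPM plus 0.01 on a log axis, with one point per library, circles for GFP and squares for T-MGM; genes are ordered by their mean. CD276, NT5E, PVR, CD47 and NECTIN2 lie between 7.76 and 69.0 TPM in every library, CD70 and CD274 between 0.30 and 1.48 TPM, and the remaining genes at or under 0.35 TPM.

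The counts were then compared between groups. A gene passed at a Benjamini-Hochberg adjusted p of at most 0.05 over all genes tested in DESeq2, and was called when it also changed over 2-fold. Normalized counts, which are counts divided by a size factor for library depth, serve to compare a gene between libraries but not with another gene. Of the 10 genes, 6 passed, 5 of them higher and 1 lower in T-MGM libraries, 1 did not pass and 3 had no adjusted p. Among all 19135 genes tested 38.4% passed, 19.2% as higher and 19.2% as lower. Among the 7722 genes with at least 700 mean normalized counts, a range that holds the 5 higher genes, 65.5% passed and 29.0% passed as higher. The groups did not overlap for the 6 genes that passed, as was the case for 46.8% of all genes tested and 70.0% of the abundant ones. The median log2 fold change was 0.20 for the 7 genes with an adjusted p and -0.0027 for all genes tested.

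**Figure D2:**
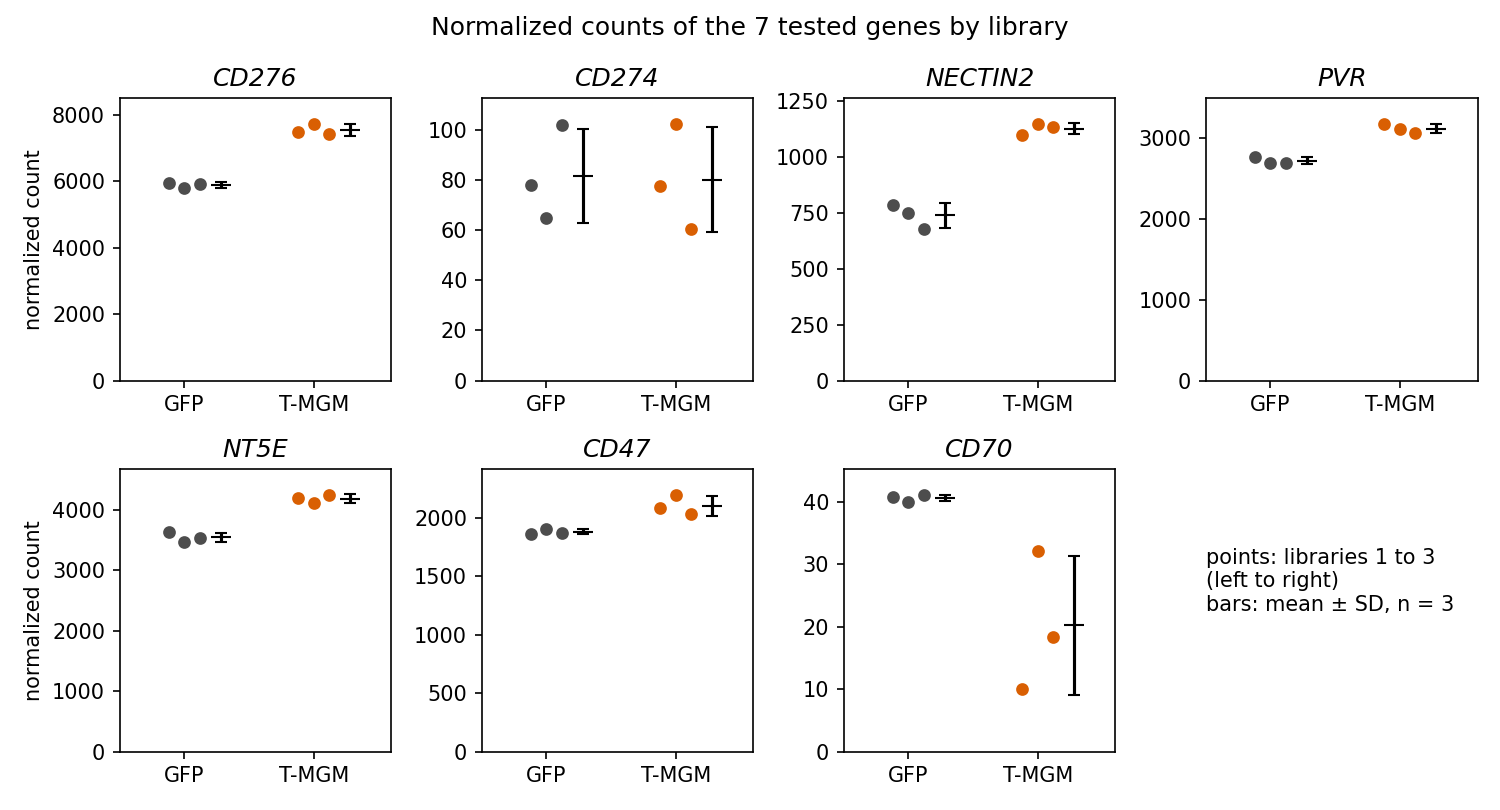
Normalized counts of the 7 genes with an adjusted p, one panel per gene and one point per library, with the mean and SD of 3 libraries as a bar; each axis starts at 0. The groups are apart for every gene but CD274, and the T-MGM values of CD70 spread from 10.04 to 32.2.

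In the B7 family, CD276 (ENSG00000103855.18; chromosome 15, 73683966 to 73714514, plus strand, GRCh38) encodes B7-H3, an inhibitory ligand found on many tumours whose receptor is not settled. It had 5941, 5782 and 5909 normalized counts with GFP and 7473, 7724 and 7402 with T-MGM. The lowest T-MGM library lay well above the highest GFP library. This gave a log2 fold change of 0.36 (SE 0.02, adjusted p = 1.91e-45 by DESeq2), a 1.28-fold increase with a 95% interval of 1.24 to 1.33. Among genes with at least 50 mean normalized counts, 21.1% changed by as much or more in either direction. CD276 rose and passed under each of the 17 alternative fits, from 0.21 to 0.37 on the log2 scale. With correction for GC content and length its rise was 0.24 (adjusted p of 2.9e-21 in DESeq2).

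CD274 (ENSG00000120217.14; chromosome 9, 5450503 to 5470566, plus strand) encodes PD-L1 and was expressed at a low level. Raw counts were 65, 60 and 89 with GFP and 85, 105 and 82 with T-MGM. Scaled for depth, these were 78.0, 65.0 and 102 against 77.5, 102 and 60.5 normalized counts, so that each group spanned almost the same range. The log2 fold change was -0.03 (SE 0.25, adjusted p = 0.945 by DESeq2), with a 95% interval from a 0.70-fold to a 1.38-fold change. A change of any size within this interval, or none, remains possible given the counts and the spread between these libraries. A lncRNA on the opposite strand, with at most 15 counts in any library, overlaps CD274 in the annotation.

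PDCD1LG2, the gene of PD-L2, lies next to CD274 on chromosome 9 (5510531 to 5571282, plus strand). It had 4 counts in GFP library 2 and 1 count in T-MGM library 1, and none elsewhere. VTCN1 (chromosome 1, 117143587 to 117210960, minus strand), which encodes B7-H4, had 8 counts in GFP library 1, 1 count in T-MGM library 1 and none elsewhere. These counts do not allow a comparison, and no fold is given.

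The 2 ligands of TIGIT and CD226 were next. NECTIN2 (ENSG00000130202.10; chromosome 19, 44846175 to 44889223, plus strand) rose most of the 10 genes. Its normalized counts were 784, 749 and 679 with GFP and 1096, 1147 and 1133 with T-MGM. This gave a log2 fold change of 0.61 (SE 0.07, adjusted p = 3.22e-19 by DESeq2), a 1.53-fold increase with a 95% interval of 1.40 to 1.67. A change of this size or larger was seen in 7.74% of genes with at least 50 mean normalized counts. NECTIN2 passed in 16 of the 17 alternatives, the exception being limma on TPM values without a filter (log2 fold change 0.42, adjusted p of 0.0636).

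PVR (ENSG00000073008.15; chromosome 19, 44643798 to 44666162, plus strand) encodes CD155, the ligand that TIGIT binds most strongly. It had 2770, 2693 and 2693 normalized counts with GFP and 3177, 3117 and 3057 with T-MGM, with no overlap. The log2 fold change was 0.20 (SE 0.03, adjusted p = 1.13e-07 by DESeq2), or 1.15-fold with a 95% interval of 1.09 to 1.20. PVR did not pass in the 3 limma fits on TPM (log2 change 0.06, adjusted p of 0.291 to 0.375), in which the median gene shifted by -0.13 to -0.15. PVR overlaps CEACAM19 on the same strand, which had at most 17 counts in any library.

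Both genes lie on the long arm of chromosome 19. There, other genes within 5 Mb had a median log2 fold change of 0.11 around PVR and 0.12 around NECTIN2, over 161 and 170 genes with at least 50 mean normalized counts. Corrected for GC content and length, both medians were 0.040. The same correction left NECTIN2 higher by 0.48 and PVR by 0.16 (adjusted p of 1.74e-12 and 3.6e-05 in DESeq2). The balance of the pair was also read within each library, where no size factor enters, a comparison chosen after the values were seen. The ratio of NECTIN2 to PVR counts was 0.283, 0.278 and 0.252 with GFP and 0.345, 0.368 and 0.371 with T-MGM. Every T-MGM library was above every GFP library, and the mean log2 ratio was higher by 0.42 in the T-MGM group. This is a description, since an exact 2-sided permutation test of 3 libraries against 3 cannot give a p below 0.1.

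The receptors of these ligands belong to lymphocytes. TIGIT had at most 4 counts and CD226 at most 7 in any library. CD96, another receptor of PVR, was an exception, with 273 ± 29.1 normalized counts with GFP and 179 ± 10.98 with T-MGM (± SD, n = 3 per group). It fell by 0.60 on the log2 scale (SE 0.13, adjusted p = 3.24e-05 by DESeq2), but did not pass in the 3 limma fits on TPM (adjusted p of 0.0576 to 0.181).

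NT5E (ENSG00000135318.12; chromosome 6, 85449584 to 85495791, plus strand) encodes CD73, the ecto-5′-nucleotidase that turns extracellular AMP into adenosine. Its normalized counts were 3626, 3466 and 3532 with GFP and 4197, 4107 and 4244 with T-MGM. No T-MGM library reached down to the GFP range. This gave a log2 fold change of 0.24 (SE 0.03, adjusted p = 6.95e-14 by DESeq2), or 1.18-fold with a 95% interval of 1.13 to 1.23. In limma on TPM it did not pass (log2 change 0.09, adjusted p of 0.135 to 0.223). AXL, the marker of the dedifferentiated state used by the study, had 236 ± 13.4 and 1126 ± 80.4 normalized counts in the same libraries (± SD, n = 3 per group), a log2 fold change of 2.26 (SE 0.09, adjusted p = 2.19e-136 by DESeq2).

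Of 21 further genes of extracellular adenosine, 13 had an adjusted p, of which 5 passed as higher, 1 as lower and 7 did not pass, where 38.4% of all genes tested passed. ENPP1, an ectoenzyme that makes AMP by cleaving ATP and cyclic GMP-AMP, had 2660 ± 94.5 normalized counts with GFP and 4960 ± 69.7 with T-MGM (± SD, n = 3 per group). It rose by 0.90 on the log2 scale (SE 0.03, adjusted p = 8.34e-165 by DESeq2). The nucleoside transporter SLC29A2 rose by 0.67 (SE 0.13; adjusted p of 3.65e-06 in DESeq2) and the adenosine receptor ADORA2B by 0.74 (SE 0.18; adjusted p of 0.000135 in DESeq2), both lost in limma on unfiltered TPM (adjusted p of 0.103 and 0.0978). ENTPD1, which encodes CD39, the enzyme upstream of CD73 in the classical route from ATP, was scarce and lower. Its normalized counts were 49.5 ± 10.04 with GFP and 21.0 ± 3.58 with T-MGM (± SD, n = 3 per group), a log2 fold change of -1.25 (SE 0.35, adjusted p = 0.00147 by DESeq2). This call was lost in limma on unfiltered TPM (adjusted p of 0.314). The median log2 fold change over the 13 tested was -0.05.

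In the fit without GC and length correction, CD47 (ENSG00000196776.16; chromosome 3, 108043091 to 108091862, minus strand), the antiphagocytic signal, changed least of the genes that passed. It had 1863, 1905 and 1873 normalized counts with GFP and 2079, 2194 and 2029 with T-MGM. The log2 fold change was 0.16 (SE 0.04, adjusted p = 0.00113 by DESeq2), or 1.12-fold with a 95% interval of 1.05 to 1.18. It did not pass in limma on TPM (log2 change 0.01, adjusted p of 0.899 to 0.906). The 18 other genes measured within 5 Mb had a median log2 fold change of -0.11. After correction for GC content and transcript length, that median was 0.0077 and CD47, whose longest transcript has 38.4% GC, was higher by 0.30 (adjusted p of 8.59e-11 in DESeq2). In that fit NECTIN2 rose by 0.48, NT5E by 0.29, CD276 by 0.24 and PVR by 0.16, so that only NECTIN2 rose more than CD47.

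Of 14 partners of CD47 and other phagocytosis signals, 10 had an adjusted p, of which 5 passed as higher, 2 as lower and 3 did not pass, with a median log2 fold change of 0.21. The share of passing genes was 38.4% over all genes tested and 65.5% over those with at least 700 mean normalized counts. With GC and length correction the 2 lower genes, ITGAV and B2M, turned slightly higher, by 0.050 and 0.028. Neither passed there (adjusted p of 0.383 and 0.426 in DESeq2), nor did QPCTL (0.349), which had passed as higher. These 3 genes were named after their values were seen. QPCT, a glutaminyl cyclase, rose by 0.60 (SE 0.04, adjusted p = 8.23e-42 by DESeq2). The integrin subunit ITGB3 rose by 0.23 (SE 0.02, adjusted p = 6.83e-43 by DESeq2) and CALR, which encodes the pro-phagocytic protein calreticulin, by 0.20 (SE 0.01, adjusted p = 9.37e-52 by DESeq2), neither of which passed in limma on TPM (adjusted p of 0.0566 to 0.391). SIRPA, the gene of the CD47 receptor, was itself abundant, at 15024 ± 130 normalized counts with GFP and 14700 ± 238 with T-MGM (± SD, n = 3 per group), with a log2 fold change of -0.03 (SE 0.02, adjusted p = 0.161 by DESeq2).

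CD70 (ENSG00000125726.11; chromosome 19, 6583183 to 6604103, minus strand) encodes a tumour necrosis factor family ligand of CD27 that can exhaust T cells when it persists. Raw counts were 34, 37 and 36 with GFP and 11, 33 and 25 with T-MGM. Normalized, these were 40.8, 40.1 and 41.1 against 10.04, 32.2 and 18.4, so that the GFP libraries were nearly equal and the T-MGM libraries spread widely. This gave a log2 fold change of -1.02 (SE 0.41, adjusted p = 0.0335 by DESeq2), with a 95% interval of 0.29-fold to 0.86-fold. CD70 was the 1 gene of the 10 to be called over 2-fold, where 4.63% of all genes tested were called, and 1.36% as lower. The call lay close to the threshold. Without T-MGM library 1 the log2 fold change was -0.70 (adjusted p of 0.212 in DESeq2), and without T-MGM library 2 it was -1.49 (adjusted p of 0.00459 in DESeq2). When any of the GFP libraries or T-MGM library 3 was left out, the log2 fold change stayed at -0.952 to -1.025. The adjusted p in DESeq2 was then 0.0948 to 0.112, with fewer libraries in the fit.

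LGALS9 (chromosome 17, 27629798 to 27649560, plus strand), the gene of galectin-9, a ligand of TIM-3, had 0, 0 and 2 counts with GFP and 4, 5 and 1 with T-MGM. Reads of this gene can be shared with the near-identical copies LGALS9B and LGALS9C, and only uniquely aligned reads were counted. The copies had at most 7 counts in any library, and in TPM values, which were made by a tool that distributes shared reads, none of the 3 exceeded 0.12. No fold is given.

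**Figure D3:**
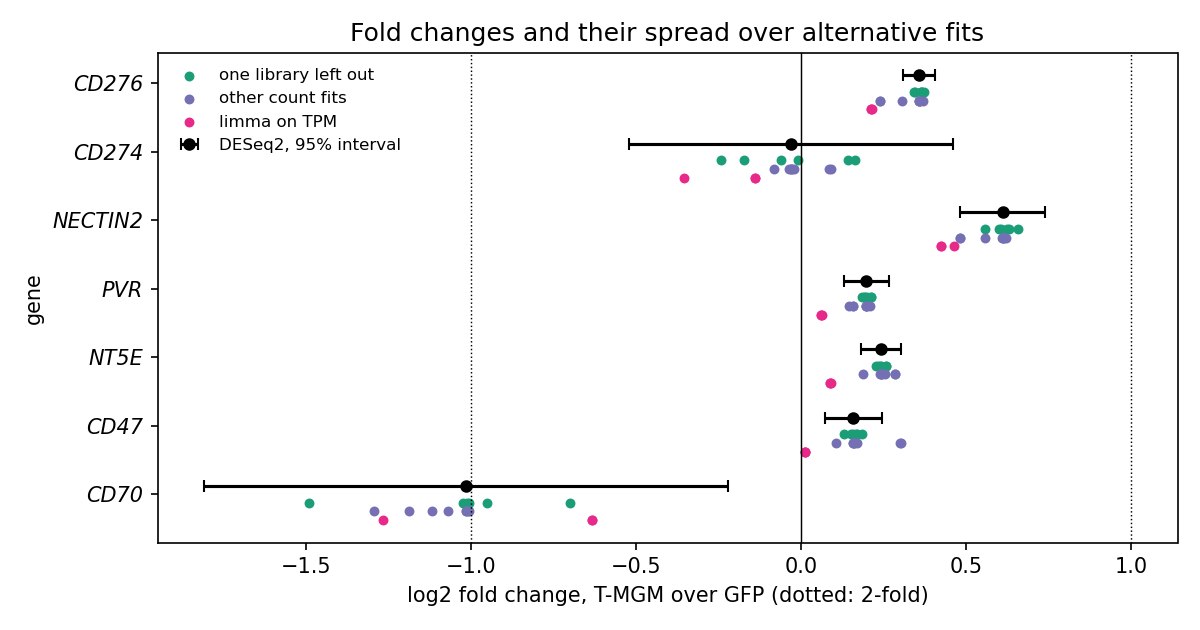
Log2 fold change, T-MGM over GFP, of the 7 genes with an adjusted p. Black points with bars are DESeq2 estimates with 95% intervals, and coloured points below them are fits that leave out one library, other fits on counts and limma on TPM; dotted lines mark 2-fold. CD276, NECTIN2, PVR, NT5E and CD47 lie to the right of 0 under every fit, CD274 lies on both sides, and CD70 lies to the left, from -1.49 to -0.63.

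The regulation of CD274 was then followed in its known controllers. Of 28 genes that act on CD274 transcription or on PD-L1 protein, all had an adjusted p, and 10 passed as higher, 7 as lower and 11 did not pass, with a median log2 fold change of 0.03. For comparison, 38.4% of all genes tested and 65.5% of those with at least 700 mean normalized counts passed, so that this count is not a result about the list. CUL3, a scaffold of the ubiquitin ligase that degrades PD-L1, fell by 0.35 (SE 0.03, adjusted p = 8.77e-42 by DESeq2). RELA, an NF-κB subunit, rose by 0.32 (SE 0.03, adjusted p = 3.7e-26 by DESeq2), which did not pass in limma on TPM (adjusted p of 0.0991 to 0.201). Of genes picked after their values were seen, the interferon-γ receptor kinase JAK2, which lies on the same chromosome arm as CD274, fell by 0.51 (SE 0.06; adjusted p of 4.84e-17 in DESeq2). CMTM6, which keeps PD-L1 at the cell surface, rose by 0.27 (SE 0.03; adjusted p of 2.5e-15 in DESeq2) but did not pass in limma on TPM (adjusted p of 0.0536 to 0.0655).

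Other inhibitory ligands were read in the same way. Of 22 genes 15 had an adjusted p, of which 3 passed as higher, 6 as lower and 6 did not pass, with a median log2 fold change of -0.29, beside the same 38.4% and 65.5% of genes that passed. LGALS1, the gene of galectin-1, which drives T cell death, had 14426 ± 252 normalized counts with GFP and 23562 ± 193 with T-MGM (± SD, n = 3 per group). It rose by 0.71 on the log2 scale (SE 0.02), with an adjusted p too small to be stored in DESeq2. LGALS3, the gene of galectin-3, a ligand of LAG-3, fell by 0.33 (SE 0.02, adjusted p = 2.05e-53 by DESeq2). CD200, the ligand of an inhibitory receptor on myeloid cells, fell, with 559 ± 40.8 normalized counts for GFP and 254 ± 11.3 for T-MGM (± SD, n = 3 per group), a log2 fold change of -1.14 (SE 0.10, adjusted p = 2.21e-28 by DESeq2). LGALS1, LGALS3 and CD200 kept their direction and passed under each of the 17 alternative fits.

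Ligands that stimulate T cells or natural killer cells formed the counterpart. Of 19 such genes 11 had an adjusted p, of which 4 passed as higher, 1 as lower and 6 did not pass, with a median log2 fold change of 0.30, beside 38.4% of all genes. That median is the value of TNFSF4, which had few counts (27.3 mean normalized counts with GFP and 33.6 with T-MGM) and did not pass (SE 0.40, adjusted p = 0.62 by DESeq2). CD58, the ligand of CD2, rose by 0.34 (SE 0.06, adjusted p = 8.49e-08 by DESeq2). MICA and ULBP3, stress ligands of the natural killer receptor NKG2D, rose by 0.37 (SE 0.08; adjusted p of 4.62e-05 in DESeq2) and by 0.33 (SE 0.09; adjusted p of 0.00191 in DESeq2). None of the 3 passed in limma on TPM (adjusted p of 0.0598 to 0.476). Over the 6 lists together, 45 of the 85 distinct genes with an adjusted p passed, 27 as higher and 18 as lower, and the median log2 fold change was 0.02. This share of 52.9% lay between the 38.4% of all genes and the 65.5% of abundant genes that passed.

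**Figure D4:**
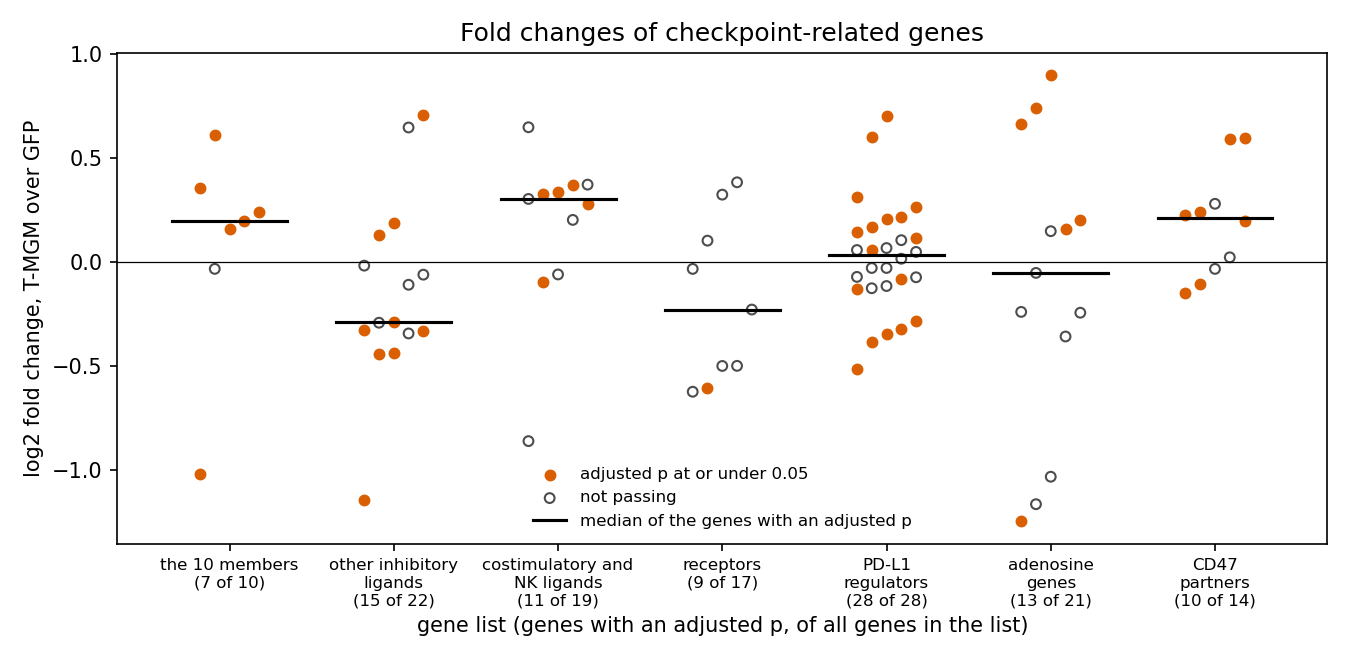
Log2 fold change, T-MGM over GFP, of each gene with an adjusted p in the 10 genes and in 6 lists of related genes; filled points passed the test, open points did not, and a line marks the median of each list. Medians run from -0.29 for other inhibitory ligands to 0.30 for costimulatory and natural killer ligands, and the 10 genes have a median of 0.20. They include genes with few counts. The median of the costimulatory list is TNFSF4, which had 27.3 mean normalized counts with GFP and 33.6 with T-MGM and did not pass.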

How the data were processed

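RNA sequencing of WM164 cells was analysed in 3 GFP and 3 T-MGM libraries, grouped by sample title. The authors trimmed reads with cutadapt 1.8.1, aligned them to GRCh38 with STAR 2.7.7a and deposited whole-number counts of uniquely aligned reads per gene, without normalization. TPM values, deposited by the authors from RSEM 1.3.0, were used for levels and alternatives. The annotation release is not given in the sources used here. The labels name an unstranded kit and the study's methods a stranded one, so reads of overlapping opposite-strand genes are uncertain.

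Counts of all genes were fitted with DESeq2 1.42.0 in R 4.3.3 (group as the only term, median-of-ratios size factors, Wald test, no shrinkage, independent filtering at 0.05), the test the study names. Intervals are at 95% and use the SE of that fit. They cover counting error and replicate spread but not PCR duplicates, which cannot be told from molecules here. The floor of 3 counts was a fixed setting that does not measure any of these. Alternatives were edgeR 4.0.16, other scalings and filters, a replicate block, lowess offsets for GC content and length (span 0.3), each library left out in turn, and limma 3.58.1 on log2 of TPM plus 1 or 0.1, with at least 0.5 TPM in 3 libraries or no filter. DESeq2, edgeR and limma (pseudocount 1, on counts scaled to library size) were first run on simulated counts in which 200 genes changed by 2 on the log2 scale. They recovered 99.5%, 100% and 99.5% of these genes. The changed genes had at least 50 mean normalized counts. The simulation therefore does not cover the smaller changes reported here or a gene with as few counts as CD70. Positions are from GENCODE on GRCh38, and promoters from RefSeq.

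The members and gene lists were chosen with earlier results of these data known. Named are all 10 genes, and in each further list the genes called over 2-fold and the 3 with the smallest adjusted p; of receptors, those over 100 mean normalized counts; MAFG, MITF and AXL served as label checks. One gene that this rule names is not reported here.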

Additional observations from a re-analysis of the deposited data

How the results depend on the processing

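CD276, NECTIN2, NT5E, PVR and CD47 stayed higher and CD70 lower in all 17 alternatives, and 6 genes passed in 6 of the fits on counts and without T-MGM replicate 2. CD274, which never passed, reversed to 0.089 with GC content and length correction, to 0.083 when the replicate block was added to it, and within the range of -0.24 to 0.16 over the fits without one replicate. In limma on TPM the median gene with at least 50 mean normalized counts moved from -0.01 to -0.13 (pseudocount 1), -0.15 (0.1) and -0.13 (no filter). Beside that shift NT5E was at 0.088, 0.090 and 0.088, PVR at 0.060, 0.064 and 0.060 and CD47 at 0.010, 0.011 and 0.010, none of them passing, so that 3, 3 and 2 of the 10 genes passed and 0, 1 and 0 were called over 2-fold; over all genes 133, 369 and 126 were called in place of 885, and unfiltered TPM left 24 in place of 45 genes of the 6 lists. CD70 alone accounts for the gene called over 2-fold: 0 were called without independent filtering (adjusted p of 0.0565) and with the replicate block (0.061). Over the fits without one replicate, 0 to 1 of the 10 genes were called, 5 to 6 passed, and 765 to 810 of all genes were called. Libraries with the same replicate number did not deviate together (Pearson's r of -0.0023, -0.040 and 0.043 over 12654 genes), so the numbers were not taken as pairs; the block gave 735 calls over all genes. Few counts, at under 110 raw counts, and the spread between libraries limit CD274 and CD70. Near-absent counts prevent a comparison of PDCD1LG2, VTCN1 and LGALS9.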

Other observations

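Several receptors that mark lymphocytes were read at a low level in these melanoma cells, although PTPRC, CD3D and CD2 were at or near 0. These genes were picked after their values were seen. CTLA4, an inhibitory receptor of T cells, had 74.3, 65.0 and 64.0 normalized counts with GFP and 51.1, 53.7 and 39.8 with T-MGM, a log2 fold change of -0.50 (SE 0.26, adjusted p = 0.131 by DESeq2). ICOS, its neighbour on chromosome 2, had 89.9, 101 and 81.1 against 55.7, 59.5 and 115 normalized counts, with the highest and the lowest values both in the T-MGM group (log2 fold change -0.23, SE 0.27; adjusted p of 0.57 in DESeq2). LAG3 had 55.2, 54.1 and 39.98 against 41.0, 28.3 and 36.2 (log2 fold change -0.50, SE 0.31; adjusted p of 0.222 in DESeq2). Of the 17 receptor genes listed, 9 had an adjusted p, of which CD96 passed as lower and 8 did not pass, and PDCD1, the receptor of PD-L1, had no count in any library.

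The ratio of 2 adenosine enzymes was also chosen after their values were seen, so that it restates their fold changes and is given as a description. ENPP1 had 0.727, 0.744 and 0.783 counts per NT5E count with GFP and 1.20, 1.21 and 1.15 with T-MGM. Of the 3 ratios computed, the other compared CD276 with CD47, at 3.13 ± 0.0799 with GFP and 3.59 ± 0.0644 with T-MGM (± SD, n = 3 per group). Counts are not scaled for length, so that the level of this ratio cannot be read. Its change between groups depended on correction for GC content and length. Without it, CD276 rose more than CD47 (0.36 against 0.16 on the log2 scale). With it, CD276 rose less than CD47 (0.24 against 0.30).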
